A study of Mus musculus with 14 samples.

Results

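The genes described here are 33 that belong to, or are fed by, the ATF4 arm of the integrated stress response, together with the enzymes and transporters that supply amino acids. They were taken by symbol from a list that uses no measured value as a criterion. The list was, however, drawn up with earlier results of these data known, so it is not independent of them. All 33 are present among the 55367 gene symbols of both deposited count tables. They comprise 10 stress factors and stress outputs, 14 enzymes of amino acid and one-carbon synthesis, and 9 amino acid transporters. The cells were primary lineage-negative (Lin-) bone marrow cells of the mouse, the fraction left when mature blood cells are removed, from animals of wild-type genotype, grown in serum with SCF, IL6 and IL3. The control of the first experiment was 3 libraries from cells given a pSMAL lentivirus with luciferase, set against 3 libraries from cells given the same vector with SETBP1-D868N, a mutant form of the nuclear protein SETBP1 known from myeloid malignancies. In the second experiment all cells carried SETBP1-D868N, and 4 libraries came from cells kept with the solvent DMSO and 4 from cells kept for 4 days with 2.5 µM PF-9363, an inhibitor of MYST histone acetyltransferases. No luciferase cells were treated with PF-9363, so both arms of that comparison share the mutant transgene. The strain, age and sex of the animals, the promoter of the transgene, and whether replicates came from separate animals or cultures are not given in the sources used here, and the p-values below measure only the spread between these libraries.

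ATF4 is a transcription factor whose protein is made mainly by translational control. When amino acids run short, the endoplasmic reticulum is stressed, heme is lacking or double-stranded RNA is present, one of a family of kinases phosphorylates eIF2α, general translation slows, and the Atf4 message is translated better. ATF4 then raises genes for amino acid import, for serine, asparagine and proline synthesis and for mitochondrial folate metabolism, and also a set of stress genes, among them Ddit3 (CHOP), Trib3 and Ppp1r15a (GADD34), some of which dampen the response. Serine made from glucose feeds the folate cycle, which supplies one-carbon units for purines and thymidylate, so these enzymes are also known for high expression in dividing cells. RNA levels, as measured here, say nothing directly about ATF4 protein.

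The sequences below show the element through which ATF4, paired with a C/EBP factor, is known to act. RefSeq promoters of GRCm38.p6, running from 250 bases before to 50 bases after the start site, were matched by symbol for 27 of the 33 genes. They were searched on both strands for TGATGNAA, the core of the C/EBP-ATF composite element. It was found in 8 of these 27 genes, against 4.51% of the 27025 genes in the table. The 7 windows below hold the match in capitals with its neighbouring bases, 5′ to 3′ in the direction of the gene, at chr6:7693214-7693243 for Asns (minus strand), chr2:119351038-119351067 for Chac1 (plus), chr7:126625562-126625591 for Nupr1 (minus), chr11:20332699-20332728 for Slc1a4 (minus), chr2:152344028-152344057 for Trib3 (minus), chr11:120643833-120643862 for Pycr1 (minus) and chr19:27216809-27216838 for Vldlr (plus).
Asns: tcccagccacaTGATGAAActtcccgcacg
Chac1: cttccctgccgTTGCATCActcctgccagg
Nupr1: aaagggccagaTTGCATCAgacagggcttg
Slc1a4: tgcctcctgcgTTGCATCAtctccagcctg
Trib3: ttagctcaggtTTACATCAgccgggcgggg
Pycr1: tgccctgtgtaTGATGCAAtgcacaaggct
Vldlr: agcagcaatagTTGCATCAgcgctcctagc

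The promoter of Slc7a11, the cystine importer, held 2 matches in opposite orientation. Its 120 bases upstream of the start site, at chr3:50443614-50443733 on the minus strand, are shown because this gene had the highest fold change with PF-9363 of the 33.
Slc7a11: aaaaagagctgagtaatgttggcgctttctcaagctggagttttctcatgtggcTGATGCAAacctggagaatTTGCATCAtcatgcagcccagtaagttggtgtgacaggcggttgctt
Of the 15 matched genes that rose with PF-9363, 6 held the element (Asns, Chac1, Nupr1, Slc1a4, Slc7a11 and Trib3), and of the 11 matched genes that fell, 2 did (Pycr1 and Vldlr). A pair of other motifs was searched in the same promoters. The E-box CACGTG occurred in 3 of the 27 genes against 8.09% of all genes, and TGACNNNGC, the core of the antioxidant response element, in 8 of the 27 against 13.99%. No such share was tested, and a match is a description of the letters and not evidence of binding.

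PF-9363 divided these genes by class. Of the 10 stress factors and outputs 7 rose and of the 9 amino acid transporters 7 rose, while 10 of the 13 tested synthesis enzymes fell. The cystine importer Slc7a11 (10.9-fold), the stress regulators Nupr1 (8.71-fold), Ddit3 (8.65-fold) and Trib3 (8.58-fold) and the phosphatase subunit Ppp1r15a (7.71-fold) rose most. The folate enzyme Mthfd1l (5.84-fold lower), the lipoprotein receptor Vldlr (4.98-fold lower) and the serine hydroxymethyltransferase Shmt1 (4.29-fold lower) fell most. The test throughout is edgeR's quasi-likelihood test over all genes kept, with Benjamini-Hochberg adjustment, and calls are genes with an adjusted p below 0.05. Of the 32 members tested, 17 were called higher and 14 lower, and only Eif4ebp1 was not called. Calls were also common among all 13456 genes tested, of which 76.0% were called, 36.6% higher and 39.4% lower, so the number of called members says little about them. Changes of at least 2-fold were called in 19 members, 12 higher and 7 lower, where 33.9% of all genes were called at that size, 15.8% higher and 18.1% lower. The libraries did not overlap between groups for 30 of the 32 tested members, against 70.3% of all genes. The median log2 fold change of the tested members was 0.35, beside −0.038 for all genes tested, and the median of its size was 1.25, beside 0.65.

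**Figure D1:**
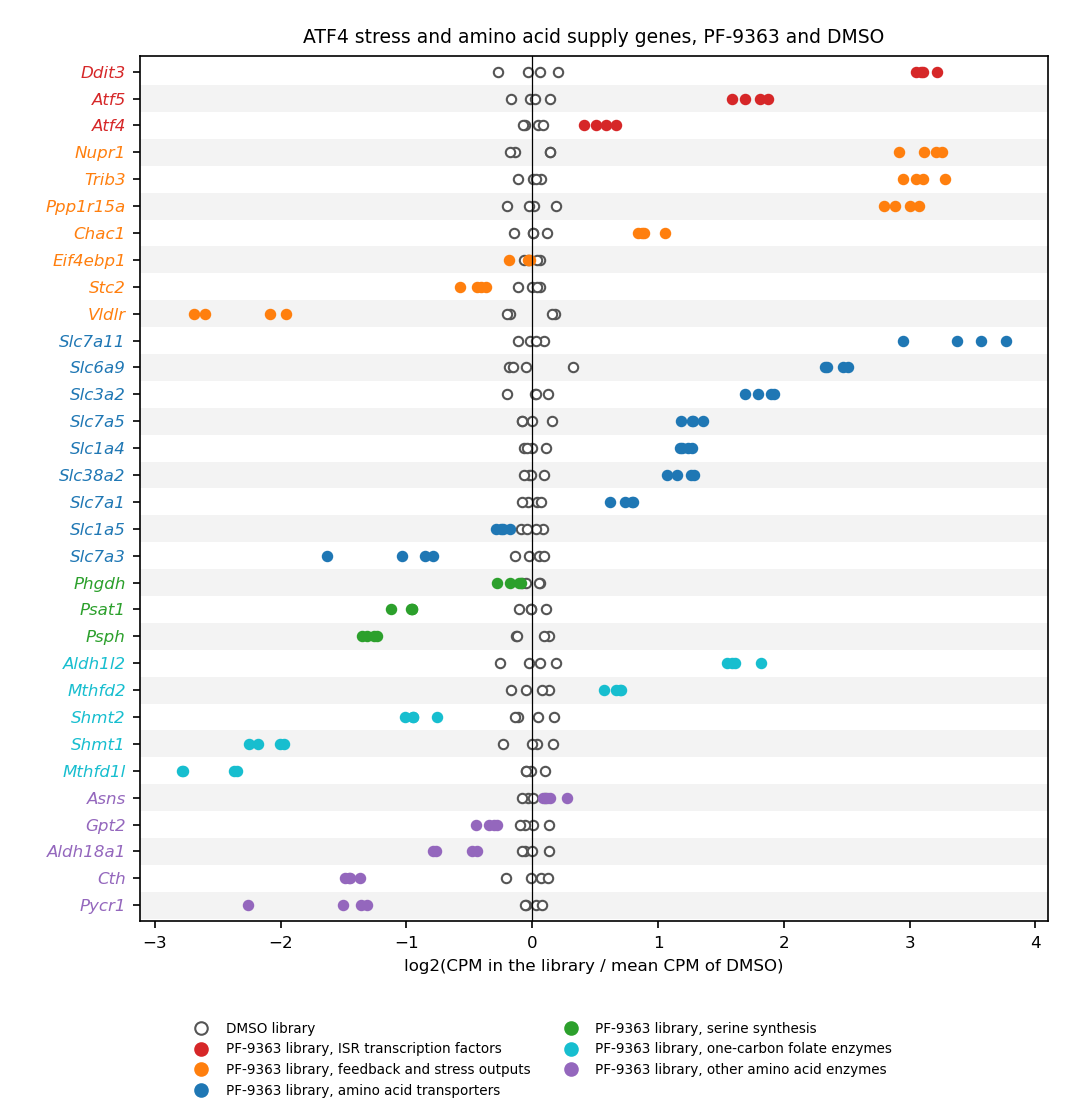
Log2 ratio of the CPM in each library to the mean CPM of the 4 DMSO libraries, for the 32 genes tested with PF-9363. Open circles are DMSO libraries and filled circles PF-9363 libraries, coloured by role. The red, orange and blue points lie mostly to the right, up to Slc7a11 with a log2 fold change of 3.45, and the green, cyan and violet points mostly to the left, down to Mthfd1l with −2.55.

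SETBP1-D868N gave smaller differences, with the synthesis enzymes on the other side. Of the 14 synthesis enzymes 11 rose and 0 fell, by log2 fold changes of 0.20 to 1.03, whereas all genes tested had 24.5% called higher and 22.7% lower. Cystathionine gamma-lyase, Cth, rose by 2.04-fold, the cytosolic and mitochondrial serine hydroxymethyltransferases Shmt1 and Shmt2 by 1.48-fold and 1.42-fold, and the 3 enzymes of serine synthesis by 1.32-fold to 1.40-fold. Of the 10 stress genes only Atf4 and Atf5 rose, while Trib3, Vldlr and Ppp1r15a fell. In all, 17 of the 33 members were called higher, 4 lower and 12 neither, where 47.2% of all 15794 genes tested were called. Cth was the only member called at 2-fold or more, a size reached by 3.82% of all genes, and without luciferase 2, SETBP1-D868N 2 or SETBP1-D868N 3 no member was. The groups did not overlap for 24 of the 33 members, against 56.7% of all genes. The members' median log2 fold change was 0.19, beside 0.0043 for all genes.

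**Figure D2:**
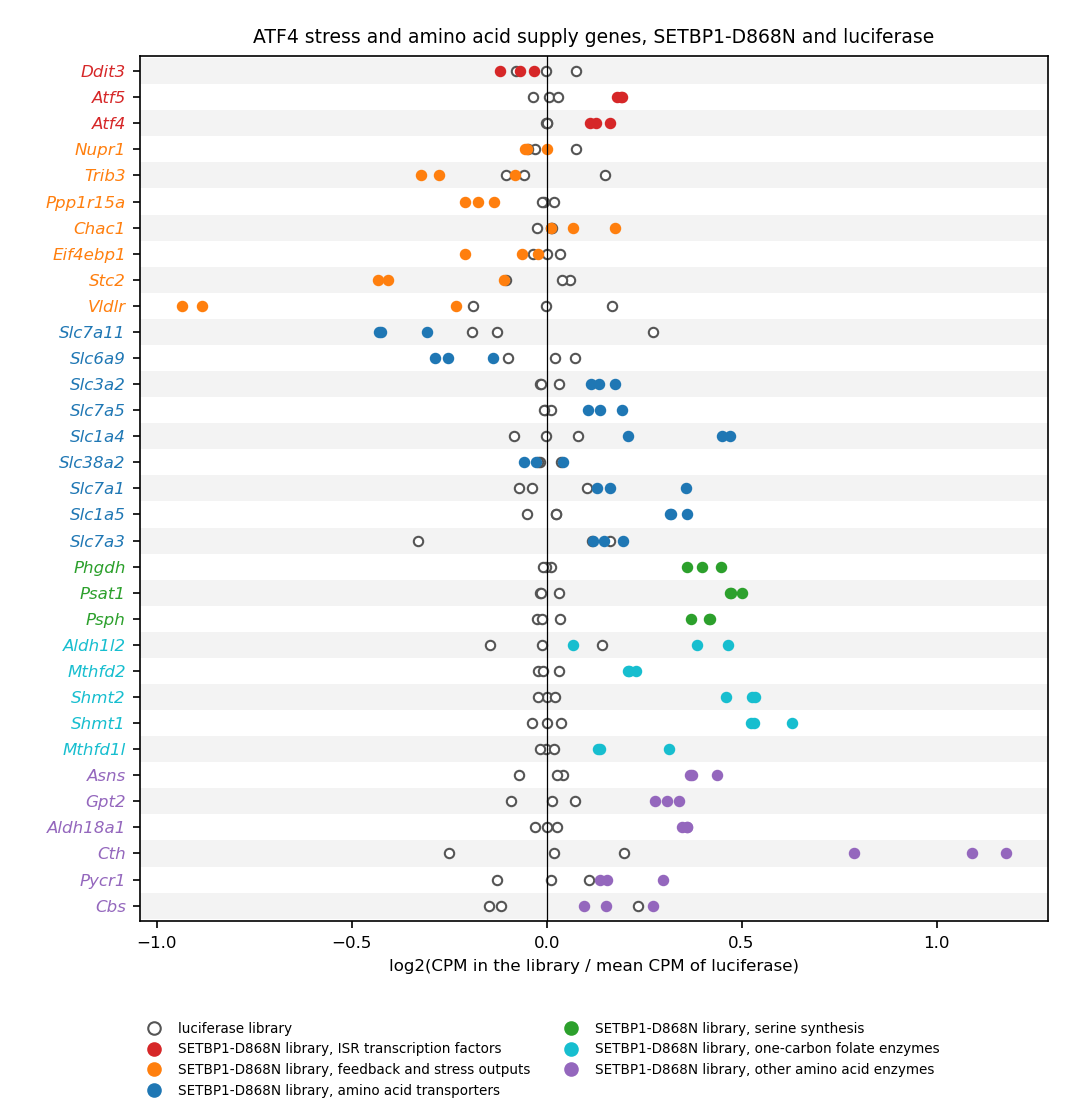
Log2 ratio of the CPM in each library to the mean CPM of the 3 luciferase libraries, for the 33 genes. Open circles are luciferase libraries and filled circles SETBP1-D868N libraries, coloured by role. The green, cyan and violet points of the enzymes lie to the right of the luciferase mean, with Cth farthest (log2 fold change 1.03), and those of Vldlr lie farthest to the left (−0.65).

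Depth ranged from 60147266 to 68730322 counts a library in the luciferase and SETBP1-D868N groups and from 7083731 to 10359093 in the DMSO and PF-9363 groups. A count of 0 allows a level of up to 0.0436 to 0.0499 CPM (counts scaled to the library total) in the former and 0.290 to 0.424 CPM in the latter, covering counting error only. The mouse symbol Setbp1, examined as a check of the labels, was higher with SETBP1-D868N (log2 fold change 1.91, SE 0.35, edgeR adjusted p = 0.00066), and whether reads of the transgene count towards it is not given in the sources used here. Within the first experiment, luciferase 1 stood farther from the other luciferase libraries than any other pair of replicates did. The T and NK cell markers Cd3e, Cd8a and Klrb1c were at 0 in all libraries of the second experiment, and no progenitor, mast cell, neutrophil, monocyte or division marker was at 0 throughout a group.

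PF-9363 moved these marker lists together with the genes described here. The counts are read beside the 36.6% of all genes called higher with PF-9363 and the 39.4% called lower. The summed CPM of 8 mast cell and basophil markers was 1012 to 1287 in DMSO and 4208 to 5210 with PF-9363, with 7 called higher. Of 8 monocyte and macrophage markers 6 were higher and 2 lower (2562 to 2721 and 3922 to 4408), and of 8 neutrophil granule markers 1 was higher and 5 lower (12400 to 14626 and 9128 to 9897). All 8 cell division markers fell, from 2074 to 2239 in DMSO to 253 to 554 with PF-9363, with a median log2 fold change of −2.65. Progenitor markers rose in 5 of 8 and fell in 1 (876 to 939 and 1859 to 2011), and 4 of the 5 erythroid and megakaryocyte markers tested rose (49.1 to 56.8 and 234 to 261). With SETBP1-D868N, 24.5% of all genes tested were called higher and 22.7% lower. The same lists gave 7 of 8 monocyte and macrophage markers lower (1723 to 1745 and 1315 to 1366). Of 8 division markers 6 were called higher, though their sums overlapped between the groups (2124 to 2333 and 2151 to 2363). There, 3 mast cell and basophil markers were higher and 5 lower (4411 to 4626 and 3939 to 4081), and neutrophil granule markers were 4 higher and 4 lower (17835 to 18707 and 13327 to 14947). Progenitor markers there were 3 higher and 5 lower (1647 to 1652 and 1502 to 1528), with a median log2 fold change of −0.28. Medians were −0.64 for monocyte and macrophage, −0.61 for mast cell and basophil and −0.23 for neutrophil granule markers. The 2 mature lineage markers tested had −0.54. All of these were larger in size than the 0.19 of the 33 genes. Erythroid and megakaryocyte markers (0.13) and division markers (0.095) had smaller medians. In bulk RNA fewer cells of a type and less RNA per cell cannot be told apart, and the part of these shifts in the results below was not tested.

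Among the 3 transcription factors, Atf4 itself had the smallest change with PF-9363. Its level there was 528, 566, 596 and 632 CPM, beside 410, 382, 422 and 377 CPM in DMSO. All PF-9363 libraries lay above all DMSO libraries, by 1.46-fold (log2 fold change 0.55, SE 0.063, edgeR adjusted p = 8.25e-09). With SETBP1-D868N it was 433, 418 and 423 CPM against 387 CPM in each luciferase library (log2 fold change 0.13, SE 0.024, edgeR adjusted p = 0.00055). Atf5, a relative of Atf4 that is likewise under translational control, stood at 118, 95.5, 106 and 108 CPM in DMSO and at 347, 323, 377 and 392 CPM with PF-9363. That is a 3.36-fold rise with no overlap (log2 fold change 1.75, SE 0.072, edgeR adjusted p = 1.65e-18), and with SETBP1-D868N Atf5 rose by 0.19 (SE 0.029, edgeR adjusted p = 0.0002).

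Ddit3 encodes CHOP, the factor that couples long-lasting stress to cell death. Its levels were 19.2, 16.3, 20.5 and 22.7 CPM in the DMSO libraries and 168, 170, 183 and 163 CPM in the PF-9363 libraries. The lowest treated library thus lay far above the highest control (log2 fold change 3.11, SE 0.084, edgeR adjusted p = 8.17e-23). In the first experiment Ddit3 was 12.8, 14.2 and 13.5 CPM with luciferase and 13.2, 12.9 and 12.4 CPM with SETBP1-D868N, groups that overlapped and did not pass the test (log2 fold change −0.073, SE 0.056, edgeR adjusted p = 0.32). Counts of Ddit3 for each count of Atf4, a ratio free of the scaling between libraries, averaged 0.0496 ± 0.0075 (SD, n = 4) in DMSO and 0.296 ± 0.0265 (SD, n = 4) with PF-9363. The ratio ranged from 0.0426 to 0.0602 in DMSO and from 0.257 to 0.318 with PF-9363.

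The outputs of the stress factors split into a group that rose strongly with PF-9363, a weakly changed group and one that fell. Trib3, a pseudokinase that binds ATF4 and limits its activity, was 31.8, 30.5, 31.1 and 28.0 CPM in DMSO and 234, 252, 261 and 295 CPM with PF-9363 (log2 fold change 3.10, SE 0.077, edgeR adjusted p = 1.63e-23). Ppp1r15a, the subunit that brings phosphatase to eIF2α and ends the response, was 17.9, 15.9, 13.7 and 15.5 CPM in DMSO and 116, 126, 109 and 133 CPM with PF-9363 (log2 fold change 2.95, SE 0.090, edgeR adjusted p = 1.04e-21). Nupr1, a small chromatin-associated stress protein, was 11.2, 10.9, 13.6 and 13.6 CPM in DMSO and 93.1, 118, 114 and 107 CPM with PF-9363 (log2 fold change 3.12, SE 0.097, edgeR adjusted p = 1.85e-21). In all 3 genes the groups were far apart and the treated libraries lay close together. Chac1, which degrades glutathione, rose less, from 20.3 ± 1.47 to 38.4 ± 2.61 CPM (SD, n = 4 each; log2 fold change 0.92, SE 0.098, edgeR adjusted p = 1.84e-09).

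Eif4ebp1, the inhibitor of cap-dependent translation, gave overlapping groups (111 ± 4.63 and 106 ± 5.81 CPM, SD, n = 4 each). Its log2 fold change with PF-9363 was −0.063 (SE 0.065, edgeR adjusted p = 0.38). With scaling by library size alone it was called lower (log2 fold change −0.29, edgeR adjusted p = 0.00019). Stc2, a secreted glycoprotein, fell from 195 ± 10.3 to 143 ± 8.74 CPM (SD, n = 4 each; log2 fold change −0.44, SE 0.064, edgeR adjusted p = 3.91e-07). Vldlr, the receptor for very low density lipoprotein, went the other way from the strongly rising outputs, and its promoter window above also holds the composite element. It was 30.4, 39.1, 30.0 and 38.5 CPM in DMSO and 5.36, 5.67, 8.87 and 8.13 CPM with PF-9363 (log2 fold change −2.32, SE 0.15, edgeR adjusted p = 1.14e-13).

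With SETBP1-D868N the same outputs were level or slightly lower. Ppp1r15a was 19.0, 19.4 and 19.0 CPM with luciferase and 16.9, 16.6 and 17.4 CPM with SETBP1-D868N (log2 fold change −0.17, SE 0.044, edgeR adjusted p = 0.0067). Trib3 was 13, 13.4 and 15.5 CPM with luciferase and 11.2, 11.5 and 13.2 CPM with SETBP1-D868N, so that the groups overlapped (log2 fold change −0.22, SE 0.082, edgeR adjusted p = 0.047). Vldlr was 5.70, 7.30 and 6.49 CPM with luciferase and 3.52, 3.39 and 5.53 CPM with SETBP1-D868N, the last close to the control range (log2 fold change −0.65, SE 0.20, edgeR adjusted p = 0.040). The calls of Trib3 and Vldlr were the only ones of this comparison lost under any alternative. Trib3 reached an adjusted p of 0.182 without luciferase 3, 0.140 without SETBP1-D868N 1, 0.136 without SETBP1-D868N 2 and 0.0705 without luciferase 2. It also missed when libraries were scaled by size alone (0.107), under limma-voom (0.0622) and without robust estimation (0.0556). Vldlr reached 0.119 without SETBP1-D868N 1, 0.103 without luciferase 2, 0.0997 without luciferase 3, 0.0948 without SETBP1-D868N 2, 0.0507 without luciferase 1 and 0.0501 with scaling by library size alone. Nupr1 (−0.035), Eif4ebp1 (−0.097), Chac1 (0.09) and Stc2 (−0.31) did not pass the test, as log2 fold changes, with edgeR adjusted p from 0.0525 for Stc2 to 0.68 for Nupr1. Stc2 missed narrowly and passed in 8 of the 14 alternatives, among them without SETBP1-D868N 3, the library in which it was highest of that group (adjusted p = 3.79e-05). Eif4ebp1 passed in 2 of the 14.

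Transporters behaved mostly like the stress outputs under PF-9363, with 7 of 9 higher, beside 36.6% of all genes tested. Slc7a11, which exchanges glutamate for the cystine used to make glutathione, was 24.1, 26.0, 22.7 and 25.0 CPM in DMSO and 254, 189, 290 and 334 CPM with PF-9363. The treated libraries spread more widely than those of Ddit3, Trib3 or Nupr1 and lay far above all controls (log2 fold change 3.45, SE 0.19, edgeR adjusted p = 1.25e-06). A stretch of 482 to 585 bases of Slc7a11 is 92.5% to 93.6% identical to the tubulin genes Tuba1a, Tuba1b and Tuba1c. These held 2734, 26406 and 11176 counts in the second experiment, beside 9893 for Slc7a11. Whether reads from that stretch enter the Slc7a11 count was not tested. Slc3a2 (CD98 heavy chain), the common partner that carries Slc7a11 and Slc7a5 to the cell surface, was 200, 171, 214 and 200 CPM in DMSO and 681, 634, 742 and 730 CPM with PF-9363 (log2 fold change 1.83, SE 0.070, edgeR adjusted p = 2.94e-19). Slc7a5, the importer of leucine and other large neutral amino acids, was 249, 224, 211 and 211 CPM in DMSO and 509, 539, 574 and 544 CPM with PF-9363 (log2 fold change 1.27, SE 0.064, edgeR adjusted p = 1.1e-16). The partners rose unequally, with 1.15 ± 0.154 counts of Slc7a5 for each count of Slc3a2 in DMSO and 0.779 ± 0.0498 with PF-9363 (SD, n = 4 each). For Slc7a11 the ratio to Slc3a2 was 0.126 ± 0.0195 in DMSO and 0.380 ± 0.0651 with PF-9363.

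The remaining rising transporters were Slc6a9, a glycine importer, Slc1a4, a carrier of serine and other small neutral amino acids, Slc38a2, a sodium-coupled carrier of neutral amino acids, and Slc7a1, the main importer of arginine and lysine. Their log2 fold changes with PF-9363 were 2.42 (SE 0.10), 1.22 (SE 0.11), 1.19 (SE 0.063) and 0.74 (SE 0.062). None of their groups overlapped, which also held for 70.3% of all genes tested. Slc6a9 shares 1429 exonic bases with Ccdc24 and 511 with Gm17114 on the opposite strand, and these rose as well (log2 fold changes 2.23 and 2.74). The handling of strand in the counting is not given in the sources used here, so reads from Slc6a9 and its antisense neighbours may not be told apart. The members that fell were Slc1a5, a glutamine carrier (144 ± 7.77 to 122 ± 4.01 CPM, SD, n = 4 each, log2 fold change −0.23, SE 0.063, edgeR adjusted p = 0.0013), and Slc7a3, a second carrier of cationic amino acids (5.78 ± 0.40 to 2.81 ± 0.665 CPM, log2 fold change −1.02, SE 0.23, edgeR adjusted p = 0.0002).

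SETBP1-D868N changed the transporters less. Slc1a4 rose (log2 fold change 0.38, SE 0.083, edgeR adjusted p = 0.0025), and Slc1a5 by 0.33 (SE 0.029, edgeR adjusted p = 2.08e-06). The Slc7a5 and Slc3a2 pair rose almost equally, by 0.15 (SE 0.026) and 0.14 (SE 0.026). Slc6a9 fell by 0.22 (SE 0.054, edgeR adjusted p = 0.0045). Slc7a11 was 45.5, 33 and 34.5 CPM with luciferase and 28.1, 30.4 and 28.0 CPM with SETBP1-D868N, without overlap. It did not pass the test (log2 fold change −0.39, SE 0.14, edgeR adjusted p = 0.083), and luciferase 1, the library that stands apart, was its highest. Without that library the log2 fold change was −0.23 and passed (edgeR adjusted p = 0.0033), and without luciferase 2 it was −0.47 and passed (edgeR adjusted p = 0.037). Slc7a1 (0.22), Slc7a3 (0.16) and Slc38a2 (−0.014) did not pass. The groups of Slc7a1 did not overlap, however, and it passed in 6 of the 14 alternatives.

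Serine synthesis runs in 3 steps, from Phgdh, which draws off a glycolytic intermediate, through Psat1, an aminotransferase, to Psph, the phosphatase that releases serine. The steps responded unequally to PF-9363. Psph was 79.1, 66.1, 77.3 and 66.6 CPM in DMSO and 30.3, 30.7, 29.1 and 28.3 CPM with PF-9363 (log2 fold change −1.29, SE 0.086, edgeR adjusted p = 6.58e-14). Psat1 was 366, 316, 337 and 336 CPM in DMSO and 175, 173, 156 and 174 CPM with PF-9363 (log2 fold change −0.997, SE 0.063, edgeR adjusted p = 1.83e-14). Phgdh was 234, 212, 233 and 217 CPM in DMSO and 198, 210, 184 and 208 CPM with PF-9363, groups that only just failed to overlap (log2 fold change −0.16, SE 0.062, edgeR adjusted p = 0.020). The call of Phgdh was lost without DMSO 1 (adjusted p = 0.062), without PF-9363 3 (adjusted p = 0.131) and under DESeq2 (adjusted p = 0.054). Phgdh has processed copies elsewhere in the genome, of which the most counted held 23 counts in the second experiment beside 16005 for Phgdh. The count of Psat1 for each count of Phgdh was 1.45 to 1.57 in DMSO and 0.826 to 0.884 with PF-9363.

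In the SETBP1-D868N comparison all 3 steps rose together and their libraries did not overlap. Over all genes tested there, 24.5% were called higher and 56.7% did not overlap. Psat1 went from 232, 232 and 240 CPM to 326, 326 and 332 CPM (log2 fold change 0.48, SE 0.025, edgeR adjusted p = 5.07e-08). Phgdh went from 179, 177 and 176 CPM to 234, 228 and 242 CPM (log2 fold change 0.40, SE 0.028, edgeR adjusted p = 4.01e-07). Psph went from 27.5, 27.8 and 28.7 CPM to 37.4, 36.2 and 37.3 CPM (log2 fold change 0.40, SE 0.038, edgeR adjusted p = 4.23e-06). Psph counts for each Phgdh count differed by less than their spread, at 0.158 ± 0.0045 with luciferase and 0.158 ± 0.0030 with SETBP1-D868N (SD, n = 3 each). Psph shares 452 exonic bases with Cct6a on the opposite strand, which moved in the same directions (log2 fold changes 0.31 with SETBP1-D868N and −0.46 with PF-9363).

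The one-carbon folate enzymes were split by PF-9363 within the mitochondrial pathway itself. There, Shmt2 takes a carbon from serine, Mthfd2 oxidises the carried unit, and Mthfd1l releases it as formate, while Aldh1l2 instead oxidises it to carbon dioxide. Mthfd1l was 179, 162, 167 and 162 CPM in DMSO and 32.4, 33, 24.3 and 24.5 CPM with PF-9363 (log2 fold change −2.55, SE 0.088, edgeR adjusted p = 1.45e-19). Shmt2 was 238, 195, 218 and 192 CPM in DMSO and 125, 110, 109 and 105 CPM with PF-9363 (log2 fold change −0.91, SE 0.072, edgeR adjusted p = 5.01e-12). Both groups were clear of each other for these falling enzymes. Mthfd2 rose instead, from 169, 137, 162 and 149 CPM to 252, 244, 229 and 250 CPM (log2 fold change 0.66, SE 0.066, edgeR adjusted p = 4.17e-10). Aldh1l2 rose more, from 10.3, 12.0, 8.80 and 11 CPM to 32.2, 31.7, 37.0 and 30.8 CPM (log2 fold change 1.64, SE 0.12, edgeR adjusted p = 3.52e-13).

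Counts within one library show the same divergence without any scaling between libraries. For each count of Mthfd1l there were 0.918 ± 0.055 counts of Mthfd2 in DMSO and 8.70 ± 1.34 with PF-9363 (SD, n = 4 each), and the ranges, 0.843 to 0.972 and 7.39 to 10.2, lay far apart. In the first experiment this ratio was 1.54 ± 0.0322 with luciferase and 1.57 ± 0.116 with SETBP1-D868N (SD, n = 3 each). Aldh1l2 shares 1056 exonic bases with D10Wsu102e on the opposite strand, a more abundant gene that was not called with PF-9363 (log2 fold change 0.076, edgeR adjusted p = 0.397).

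Shmt1, the cytosolic counterpart of Shmt2, had the opposite calls in the 2 experiments. It was 57.0, 55.4 and 58.3 CPM with luciferase and 88.0, 81.9 and 82.2 CPM with SETBP1-D868N (log2 fold change 0.56, SE 0.036, edgeR adjusted p = 2.41e-07). In the second experiment it fell from 47.9, 39.8, 52.4 and 46.6 CPM to 9.79, 11.9, 10.3 and 11.6 CPM (log2 fold change −2.10, SE 0.11, edgeR adjusted p = 4.9e-16). Shmt2 rose with SETBP1-D868N by 0.51 (SE 0.027, edgeR adjusted p = 6.56e-08), Mthfd2 by 0.22 (SE 0.027, edgeR adjusted p = 3.45e-05) and Mthfd1l by 0.20 (SE 0.046, edgeR adjusted p = 0.0052). Aldh1l2 did not pass, with overlapping groups of 3.36 ± 0.334 and 4.18 ± 0.588 CPM (SD, n = 3 each, edgeR adjusted p = 0.0508). It passed in 4 of the 14 alternatives.

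The other amino acid enzymes fell with PF-9363, apart from Asns. Pycr1 and Aldh18a1 are the last and first enzymes of proline synthesis from glutamate. Pycr1 was 13.1, 13.8, 14.2 and 13 CPM in DMSO and 5.25, 4.77, 5.45 and 2.82 CPM with PF-9363 (log2 fold change −1.58, SE 0.18, edgeR adjusted p = 3.81e-09), and its window above holds the composite element. Aldh18a1 fell by 0.61 (SE 0.079, edgeR adjusted p = 1e-07), with PF-9363 libraries at 69.4 to 88.4 CPM below DMSO libraries at 113 to 131 CPM. Gpt2, the mitochondrial alanine aminotransferase, fell by 0.34 (SE 0.082, edgeR adjusted p = 0.000435). Cth, which makes cysteine from cystathionine, fell from 50.8, 41.9, 52.9 and 48.0 CPM to 17.2, 18.7, 17.7 and 17.7 CPM (log2 fold change −1.44, SE 0.099, edgeR adjusted p = 1.33e-13). The cystine importer and the enzyme that makes cysteine within the cell thus went in opposite directions under PF-9363. Cbs, the step before Cth, was too low to be tested there, with 6, 9, 10 and 12 counts in DMSO and 0, 0, 3 and 0 counts with PF-9363.

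Asparagine synthetase, Asns, a much-used reporter of ATF4, barely moved with PF-9363. It was 220, 200, 194 and 206 CPM in DMSO and 222, 226, 217 and 248 CPM with PF-9363, and DMSO 1 lay within the treated range. Its log2 fold change was 0.16 (SE 0.062, edgeR adjusted p = 0.024), and it turned to −0.074 and was not called when libraries were scaled by their size alone. The call was also lost without DMSO 3 or PF-9363 4 (adjusted p = 0.090 and 0.091) and without the filter on low counts (adjusted p = 0.076). In the first experiment Asns rose from 78.3, 84.7 and 83.7 CPM to 106, 111 and 106 CPM (log2 fold change 0.39, SE 0.036, edgeR adjusted p = 3.16e-06). Cth there rose from 1.52, 1.26 and 1.72 CPM to 2.59, 3.39 and 3.19 CPM (log2 fold change 1.03, SE 0.15, edgeR adjusted p = 0.00014). Aldh18a1 rose by 0.36 (SE 0.027) and Gpt2 by 0.31 (SE 0.048), while Pycr1 (0.20) and Cbs (0.17) did not pass. The groups of Pycr1 did not overlap, and it passed in 1 of the 14 alternatives.

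The classes therefore divided the members' counts differently in each group. Synthesis enzymes held 33.2% to 33.6% of the 33 genes' counts in the luciferase libraries and 37.9% to 38.6% in the SETBP1-D868N libraries. They held 45.6% to 46.9% in DMSO and 20.1% to 22.9% with PF-9363. Transporters held 48.2% to 49.0%, 44.8% to 46.0%, 27.4% to 28.0% and 42.8% to 45.9% in the same order of groups. Stress factors and outputs held 17.8% to 18.3%, 16.1% to 16.6%, 25.4% to 26.7% and 32.6% to 34.3%. In neither experiment did the groups overlap in any class share. The shares of a library are parts of the same whole, so a rise in any class lowers the sum of the others. Of all counts, transporters took 0.168% to 0.171% with luciferase and 0.187% to 0.197% with SETBP1-D868N. Stress factors and outputs took 0.0623% to 0.0639% and 0.0670% to 0.0691%. Both thus rose with SETBP1-D868N as shares of all counts. With PF-9363 each class moved in the same direction on both scales. The 33 genes as a whole took 0.349% to 0.350% of all counts with luciferase and 0.415% to 0.429% with SETBP1-D868N, and 0.376% to 0.414% in DMSO and 0.503% to 0.533% with PF-9363. The SETBP1-D868N libraries of the first experiment and the DMSO libraries of the second, both from cells with the mutant, differ in RNA input (500 and 100 ng), library kit and depth, and they were not compared by a test.

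**Figure D3:**
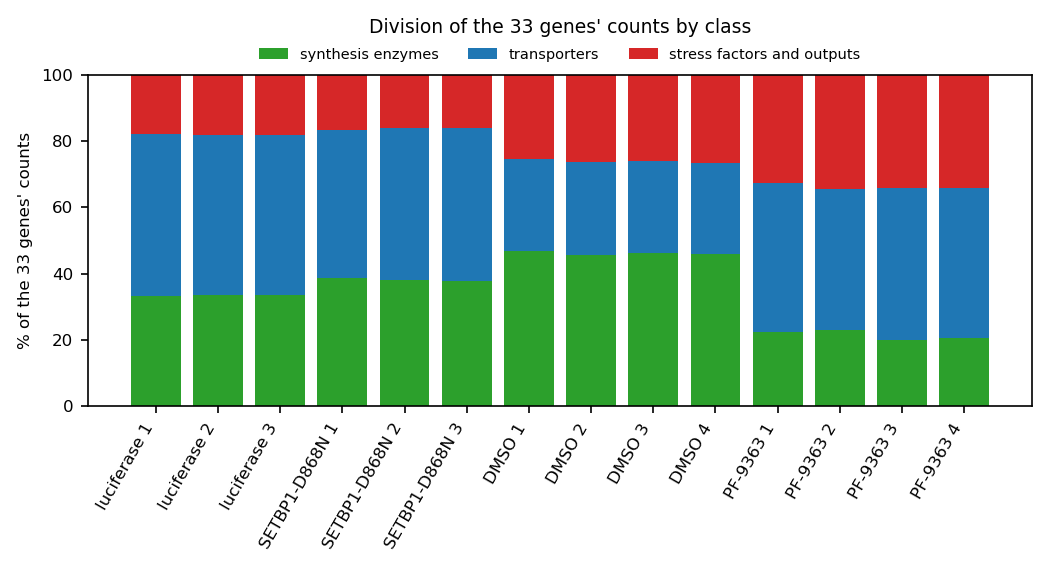
Percentage of the 33 genes' counts that fell on synthesis enzymes, transporters, and stress factors and outputs, for each of the 14 libraries. The enzyme share is 45.6% to 46.9% in the DMSO bars and 20.1% to 22.9% in the PF-9363 bars, and differs less between luciferase and SETBP1-D868N.

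By class, PF-9363 called 7 of the 10 stress factors and outputs higher and 2 lower, and 7 of the 9 transporters higher and 2 lower. Of the 13 tested synthesis enzymes, 3 were called higher and 10 lower. Over all genes tested, 36.6% were called higher and 39.4% lower. The enzymes that rose were Asns, Mthfd2 and Aldh1l2. Median log2 fold changes were 1.33, 1.22 and −0.91 for these classes, beside −0.038 for all genes tested. SETBP1-D868N gave medians of −0.085, 0.15 and 0.37, beside 0.0043 for all genes tested.

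The comparisons share no library, and 32 members were tested in both. Opposite calls were made for 13 members, of which 10 rose in the mutant cells and fell under the inhibitor, and 3 the reverse. Among the 12376 genes tested in both, 34.9% had opposite calls, so the members' 13 of 32 is close to the share over all genes. The 10 were Phgdh, Psat1, Psph, Shmt1, Shmt2, Mthfd1l, Aldh18a1, Cth, Gpt2 and Slc1a5, which are enzymes with the exception of the glutamine carrier. The 3 were Trib3, Ppp1r15a and Slc6a9. Calls in the same direction were made for 8 members, beside 9.05% of all genes, namely Atf4, Atf5, Asns, Mthfd2, Slc7a5, Slc3a2 and Slc1a4 higher in both and Vldlr lower in both. The other 11 were not called in at least one comparison.

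**Figure D4:**
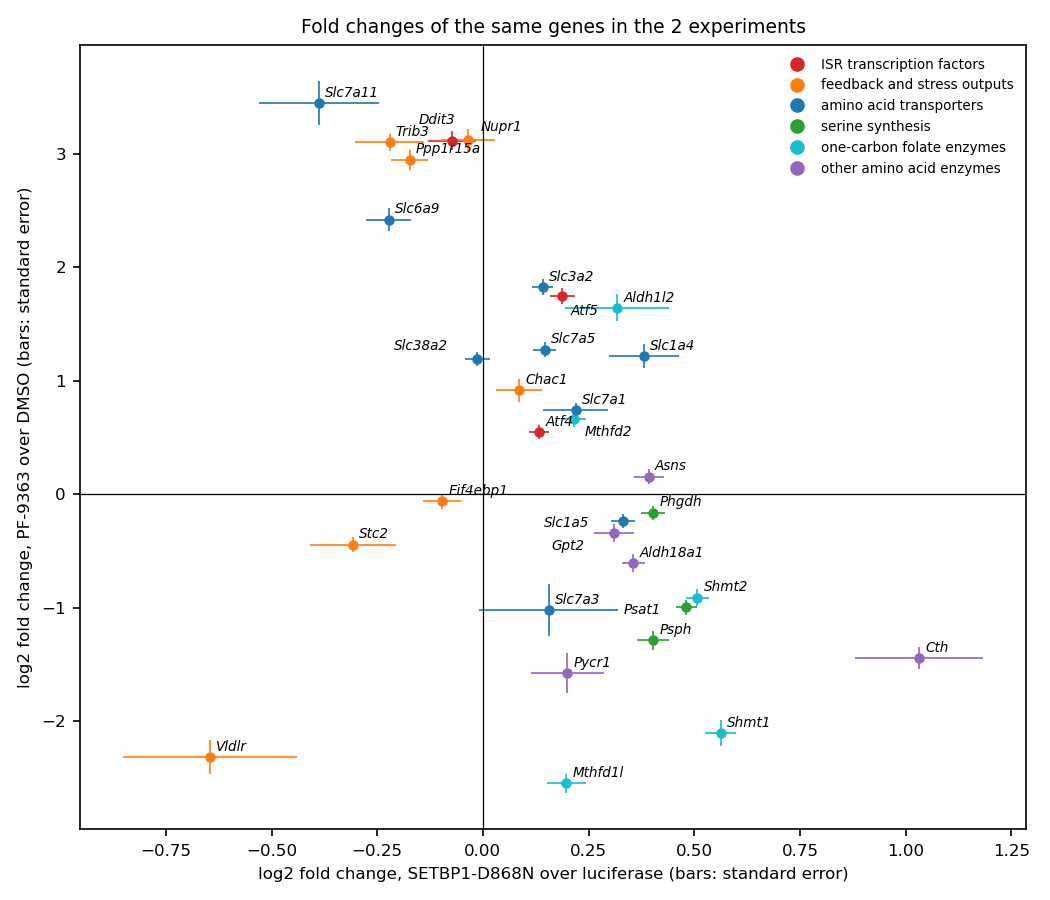
Log2 fold change of each of the 32 genes tested in both experiments, SETBP1-D868N over luciferase on the x axis and PF-9363 over DMSO on the y axis, with standard errors as bars. The axes differ in scale. The lower right quadrant holds mostly enzymes, such as Shmt1 (0.56 and −2.10), and the upper left holds stress factors and outputs with the transporters Slc7a11, Slc6a9 and Slc38a2.

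Per kilobase of exon, a scale on which genes can be compared, Atf4 was the most abundant member in every group, at 164 ± 0.074 CPM per kilobase with luciferase, 180 ± 3.34 with SETBP1-D868N, 169 ± 9.16 in DMSO and 246 ± 18.9 with PF-9363. In DMSO the next were Phgdh (90.01 ± 4.45), Psat1 (79.6 ± 4.91), Asns (74.9 ± 4.12) and Shmt2 (67.8 ± 6.87), all synthesis enzymes. Psat1 and Asns did not differ beyond their spread. With PF-9363 the next were Slc3a2 (197 ± 14.1), Atf5 (180 ± 15.5), Slc7a5 (146 ± 7.19), Trib3 (123 ± 12.1) and Ddit3 (99.7 ± 4.95), none of them an enzyme, and neighbouring levels among Slc3a2 and Atf5 overlapped within their spread. Cbs was the lowest member in all 4 groups.

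Other genes of the pathway were followed in 7 lists, each chosen with earlier results of these data known. With PF-9363, 36.6% of all genes tested were called higher and 39.4% lower, and the counts of each list are read beside these shares. The 13 genes of stress sensing and eIF2 control had 3 higher and 7 lower with PF-9363, with a median log2 fold change of −0.33. Impact, which restrains the amino acid sensor GCN2, rose by 2.35 (SE 0.091), and Eif2ak4, which encodes GCN2, fell by 0.85 (SE 0.10). Of 16 other partners and targets of ATF4 tested, 12 rose and 4 fell, with a median of 0.71. Among them Atf3, a stress-induced partner, rose from 10.2 ± 1.11 to 98.7 ± 12.1 CPM (log2 fold change 3.28, SE 0.10), and Sqstm1, an autophagy receptor, from 234 ± 10.9 to 1742 ± 176 CPM (2.89, SE 0.072). Vegfa, a growth factor for vessels, fell by 1.56 (SE 0.072), and Pck2, mitochondrial phosphoenolpyruvate carboxykinase, by 0.68 (SE 0.072).

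The lists of genes that use or carry amino acids or one-carbon units are read beside the 36.6% of all genes called higher with PF-9363 and the 39.4% called lower. Of 20 cytosolic tRNA synthetases 6 rose and 11 fell with PF-9363 (median −0.19), where the seryl enzyme Sars rose by 0.93 (SE 0.068) and the lysyl enzyme Kars fell by 1.09 (SE 0.070). The folate and methionine cycle had 3 of 16 higher and 11 lower (median −0.55). Its folate carrier Slc19a1 fell from 26.1 ± 3.10 to 2.77 ± 0.919 CPM (log2 fold change −3.19, SE 0.17). Mthfs rose by 2.24 (SE 0.23). Other amino acid transporters had 9 of 14 higher and 3 lower (median 0.42), with the cationic carrier Slc7a2 up from 215 ± 30.8 to 1166 ± 173 CPM (2.44, SE 0.14) and Slc43a1, a carrier of large neutral amino acids, down by 3.71 (SE 0.33) to at most 4 counts in a library.

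Neighbouring stress pathways had calls in both directions with PF-9363, as had all genes tested (36.6% higher and 39.4% lower). Chaperones and other targets of the XBP1 and ATF6 arms had 9 of 20 higher and 9 lower (median 0.01), with Pdia4 up by 0.99 (SE 0.061) and Sdf2l1 down by 1.10 (SE 0.076). The NRF2 and glutathione list had 8 of 14 higher and 4 lower (median 0.42), led by the sulfiredoxin gene Srxn1 (1.93, SE 0.092) and the heme oxygenase gene Hmox1 (1.71, SE 0.10).

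With SETBP1-D868N, where 24.5% of all genes were called higher and 22.7% lower, the lists had smaller medians in size apart from the tRNA synthetases and the chaperones. Of the 20 tRNA synthetases 18 rose and 0 fell (median 0.22), and of 16 folate and methionine cycle genes 12 rose and 2 fell (median 0.28), Slc19a1 by 0.62 (SE 0.037). ER chaperones had 12 of 20 higher and 1 lower (0.13), eIF2 control 6 of 13 higher and 2 lower (0.06), and other amino acid transporters 6 of 15 higher and 4 lower (0.13). Other ATF4 partners and targets had 4 of 16 higher and 7 lower (0.01), among them Bcat1, a branched-chain aminotransferase, up by 0.61 (SE 0.036) and Atf3 down by 0.66 (SE 0.047). The NRF2 list had 4 of 14 higher and 6 lower (−0.03).

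**Figure D5:**
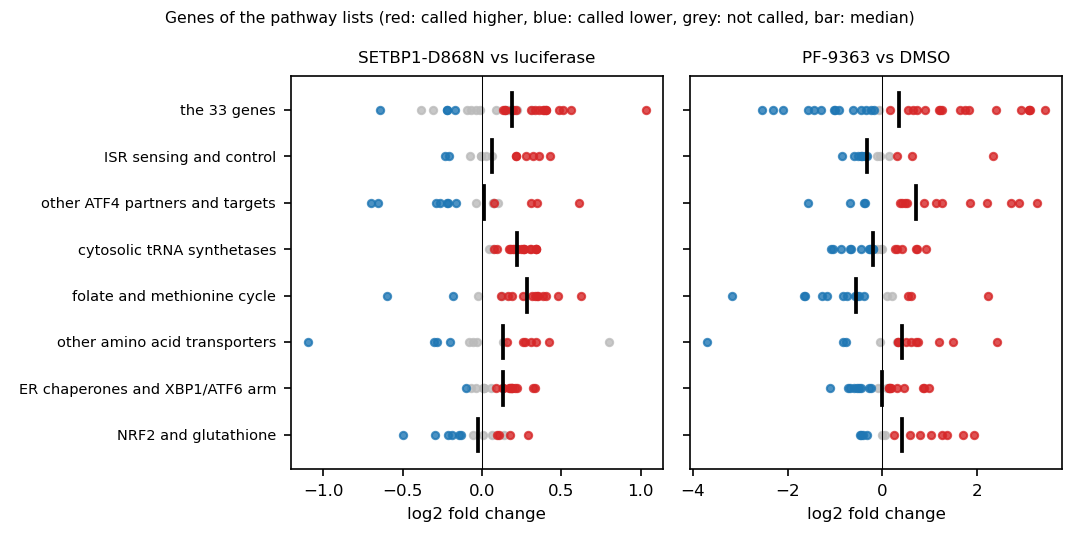
Log2 fold changes of the 33 genes and of the genes of 7 pathway lists, SETBP1-D868N over luciferase on the left and PF-9363 over DMSO on the right, on different scales. Each point is a gene, red if called higher, blue if called lower and grey if not called, and the bar is the median, such as −0.55 for the folate and methionine cycle with PF-9363.

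The scaling between libraries touches these numbers. By library size alone the median log2 fold change of all genes moved by −0.23 in the PF-9363 comparison and by 0.049 in the other. The share of calls that were higher moved from 48.1% to 36.2% and from 51.9% to 62.1%. The members' counts of higher and lower calls became 16 and 15 with PF-9363 and 20 and 2 with SETBP1-D868N, with 10 and 9 at 2-fold or more with PF-9363.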

How the data were processed

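Messenger RNA was sequenced in 14 libraries, grouped by their titles. Raw counts per gene symbol were deposited by the authors in 1 table per experiment, and they are whole numbers. The submitters' processing notes name STAR, DESeq2 and the build GRCm38/mm10. Versions, the annotation, the counting program and strand handling are not given in the sources used here. Everything else was computed here in R 4.3.3 with edgeR 4.0.16. In each experiment filterByExpr (minimum count 10, minimum total 15) removed low genes, TMM scaled the libraries, whose levels are printed as CPM, and glmQLFit (robust) with glmQLFTest compared the groups with no covariate. The standard error is the fitted log2 fold change over the root of F, taken without its sign.

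Alternatives were RLE or library-size scaling, no filter beyond 1 count, a minimum mean count of 10, other tools (DESeq2 1.42.0, limma-voom from limma 3.58.1), no robust estimation, the replicate number as a block, and leaving out each library. The test was also run on simulated counts, with an outcome that is not reported here. Exon lengths and overlaps came from GENCODE M21, promoters from RefSeq. All 33 genes are reported. From the 7 pathway lists up to 2 called genes per direction with the largest change could be named. The members and lists were chosen with earlier results of these data known. No columns were left unmapped (0).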

Additional observations from a re-analysis of the deposited data

Results flagged for a closer look

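In groups of 4, a library was marked where its gap to the nearest of the others took an unusually large share of the group's range, which chance gives in about 1 in 20 groups. It happened in 3 of the 66 groups examined, about as many as chance gives, and each was in the PF-9363 group. Psat1 was 156 CPM in PF-9363 3, beside 173 to 175 CPM in the other 3 libraries, all far below DMSO. Eif4ebp1 was 97.4 CPM in PF-9363 2, beside 109 CPM in each of the others. Cbs was 0.467 CPM, from 3 counts, in PF-9363 3 and at 0 in the others. PF-9363 3 was the shallowest library, in which a count of 0 would allow up to 0.424 CPM. That limit is also 3 counts, taken over the library total without TMM scaling, so the flagged value does not exceed it.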

How the results depend on the processing

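Of the 31 calls with PF-9363, 29 held in every setting run, the exceptions being Asns and Phgdh, and of the 21 with SETBP1-D868N 19 held, the exceptions being Trib3 and Vldlr. Of the 12 members not called with SETBP1-D868N, 6 were called in at least one setting. Scaling by library size alone gave 2 members lower with SETBP1-D868N (4 in the report) and a members' median of 0.12 on the log2 scale with PF-9363 (0.35 in the report), and turned the signs of Slc38a2 (0.035) and Nupr1 (0.014) with SETBP1-D868N and of Asns (−0.074) with PF-9363. Leaving out 1 library gave 17 to 18 higher and 2 to 5 lower members with SETBP1-D868N, and 16 to 17 higher and 13 to 14 lower with PF-9363. The count of 2 came without luciferase 3 and without SETBP1-D868N 2. Leaving out a library also turned the sign of values near 0 that had not passed, namely Slc38a2 (−0.044 to 0.0068, with 0.0043 also positive) and Nupr1 (−0.059 to 0.0039). The cause of these changes was not tested. The replicate block gave 17 higher and 5 lower members with SETBP1-D868N, Stc2 being gained, and 17 and 14 with PF-9363. Libraries with the same number did not deviate together (correlations between −0.097 and −0.037 for luciferase and SETBP1-D868N and between −0.040 and 0.0075 for DMSO and PF-9363), so the numbers are not taken to pair them. Cbs could be fitted with PF-9363 only without the filter on low counts, where its log2 fold change was −3.08 (edgeR adjusted p = 0.00085). Depth limits the second experiment, where Cbs had at most 12 counts in a library.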
